A study of Mus musculus with 23 samples.

Results

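10 genes that govern the making and repair of muscle were followed in quadriceps of mice with pancreatic tumors: Pax7, Myf5, Myod1, Myog, Myf6, Mef2a, Mef2c, Mef2d, Cdkn1a and Myc. They were chosen by symbol, with earlier results of these data known, and all 10 of 10 were found among the 12831 genes of the quadriceps count table. The table of epididymal fat, used as a background tissue, held 5 of the 10 among its 16962 genes. Male C57BL/6J mice had surgery at 8 weeks of age and were all killed when the KPC group met its humane endpoint. The no tumor group had sham surgery. The KPC group received, in the pancreas, a cell line made from the tumor of a male mouse that carried LSL-Trp53R172H and Pdx1-Cre among its alleles, and taken through the same transfection with a null CRISPR/Cas9 plasmid, and the KPC IL6KO group received cells of the same origin whose Il6 gene had been disrupted with CRISPR/Cas9. Each line was 1 clone, so clone and Il6 status cannot be told apart, and Il6 of the host was intact in every group. The paper reports that KPC tumors were also the larger ones, and found no correlation of tumor mass with muscle mass. The part of tumor size in the values below was not tested. Quadriceps was taken from 3 mice with no tumor and from 4 with each kind of tumor, and fat from another 4 mice of each group.

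Satellite cells are the resident stem cells of skeletal muscle, and Pax7 is the transcription factor that marks them. When a fiber is damaged they divide and turn on the myogenic regulatory factors, a family of basic helix-loop-helix proteins. Myf5 and Myod1 commit the cell to muscle, Myog drives its differentiation, and Myf6, also known as Mrf4, is the member that predominates in mature fibers. Mef2a, Mef2c and Mef2d encode MADS-box factors that work with the myogenic factors on muscle genes, Cdkn1a encodes the cell cycle inhibitor p21, and Myc encodes a factor that drives ribosome synthesis and growth. In whole muscle most RNA comes from fibers, and fewer cells of a type cannot be told apart from less RNA per cell.

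Depth ranged from 19259763 to 53188659 counts per library in no tumor, from 54968680 to 74907810 in KPC and from 50003124 to 62832136 in KPC IL6KO quadriceps. Levels are given as CPM, the counts of a gene relative to TMM-normalized library size, and 3 counts, the floor used here, corresponded to 0.0462 to 0.154 CPM. The lowest member count in any quadriceps library was 20, for Myf5 in no tumor 3. The floor covers counting error only, whereas the standard errors and intervals of fold changes come from the fit across mice. A gene was called at an edgeR FDR of at most 0.05 and a fold change of at least 1.5. The 6 markers of muscle fibers, Acta1 and Myh4 among them, summed to 112034 to 173465 CPM in every quadriceps library, as the tissue label states. None of the 4 T cell or 5 epididymis markers had a row in the quadriceps table.

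In KPC quadriceps 5 of the 10 genes rose and 3 fell relative to no tumor. Myog, Mef2a, Mef2d, Cdkn1a and Myc rose, Pax7, Myod1 and Mef2c fell, and Myf5 and Myf6 did not pass the test. The largest rise was that of Cdkn1a, at 26.04-fold, and the largest fall that of Myod1, at 7.65-fold. Of all 12831 genes, 26.7% were called up and 29% down in this comparison, so calls were frequent across the table. For 8 of the 10 every KPC value lay on one side of every no tumor value, which was so for 65.3% of all genes. The split of all calls was 3428 up and 3719 down after TMM and 2622 up and 4499 down when libraries were scaled by total counts alone, a scaling that moved the median log2 fold change of all genes from -0.03 to -0.24.

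In KPC IL6KO quadriceps none of the 10 genes was called relative to no tumor, where edgeR's quasi-likelihood test called 0% of all genes. None of the 10 reached an unadjusted p of 0.05, a level that 887 genes in the table passed. The edgeR likelihood ratio test called 25 genes up and 70 down and DESeq2 30 up and 63 down, with none of the 10 among them. Their log2 fold changes ran from -0.35 for Cdkn1a to 0.34 for Myf5. The intervals differed in width, and a change of up to 1.402 on the log2 scale in Myf6 or of -1.41 in Myog lay within them. Values of the groups did not overlap for 1 of the 10, Myf5, by a narrow gap, against 15.5% of all genes.

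When the tumor groups were compared directly, 4 of the 10 were called higher in KPC and 4 called lower. Myog, Mef2a, Cdkn1a and Myc were higher and Pax7, Myf5, Myod1 and Mef2c lower, where 26.4% of all genes were called higher and 27.3% lower. Values did not overlap for 8 of the 10, against 62% of all genes. Both comparisons use the same KPC mice, so they are not independent of each other.

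**Figure D1:**
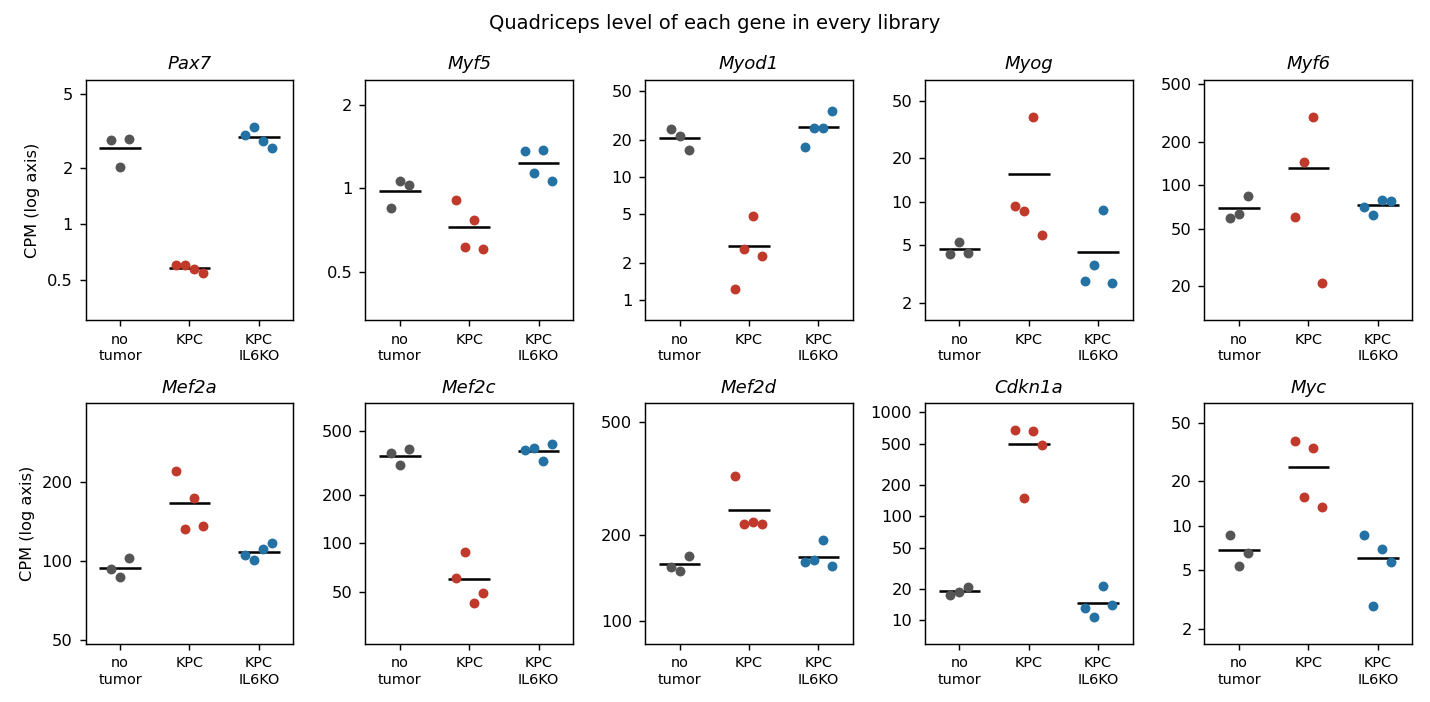
Level of each gene in every quadriceps library, in CPM on log axes that differ between panels. Points are mice (3 no tumor, 4 KPC, 4 KPC IL6KO) and lines are group means. The 4 KPC points lie apart from all other points for Pax7, Myod1, Mef2a, Mef2c, Mef2d, Cdkn1a and Myc, and are spread most widely for Myf6 and Myog.

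**Figure D2:**
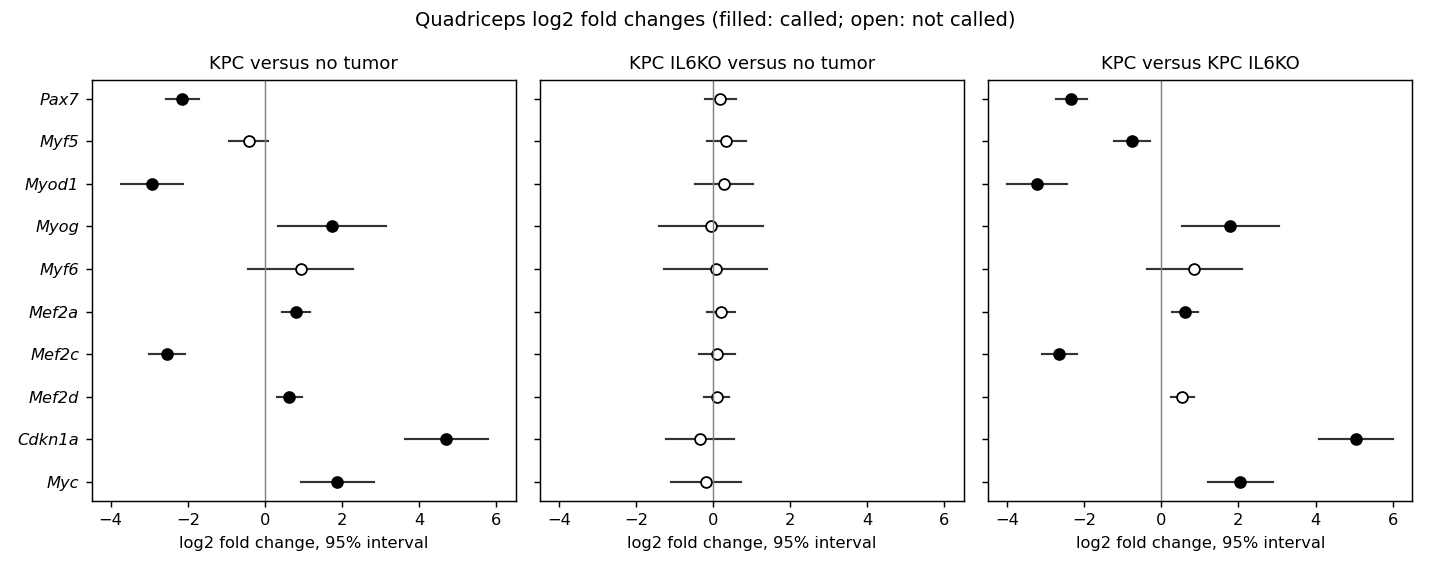
Log2 fold change of each gene in quadriceps with its 95% interval, for the 3 comparisons. Filled points were called and open points were not. Intervals in the middle panel all include 0, and the outer panels resemble each other in part because they share the 4 KPC libraries.

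Pax7 (chromosome 4, 139737062 to 139833528, minus strand, mm10) had the smallest coefficient of variation in KPC of the called genes that fell. It was at 2.84, 2.02 and 2.87 CPM in the no tumor mice, at 0.60, 0.60, 0.57 and 0.55 CPM in KPC, and at 3.01, 3.33, 2.82 and 2.56 CPM in KPC IL6KO. Every KPC mouse was below every other mouse, and the KPC values differed from each other by a coefficient of variation of 4.47%. The mean of 2.58 ± 0.48 CPM in no tumor (SD, n = 3) fell to 0.580 ± 0.026 CPM in KPC (SD, n = 4), 4.41-fold (log2 fold change -2.14, SE 0.19, edgeR FDR 4.42e-06). These values rest on few reads, 56 to 164 counts per no tumor library and 29 to 39 per KPC library. Counting error at such counts exceeds 4.47%, so that figure does not measure how alike the KPC mice were. Against KPC IL6KO the difference was 5.03-fold (log2 -2.33, SE 0.18, edgeR FDR 1.82e-06).

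Myf5 (chromosome 10, 107482908 to 107486134, minus strand), an early commitment factor that many satellite cells express, was also rare. Its level was 0.85, 1.06 and 1.02 CPM in no tumor, 0.91, 0.62, 0.77 and 0.60 CPM in KPC and 1.36, 1.14, 1.37 and 1.06 CPM in KPC IL6KO. KPC 1 lay within the no tumor range, and the log2 fold change of -0.42 (SE 0.23, edgeR FDR 0.128) did not pass the test, with an interval from -0.93 to 0.09. The difference between KPC and KPC IL6KO did pass it, at 1.70-fold lower (log2 -0.76, SE 0.21, edgeR FDR 0.0071), with no overlap between the groups. With scaling by total counts the KPC change from no tumor was called as well, at -0.64 (edgeR FDR 0.0244).

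Myod1 (chromosome 7, 46376474 to 46379099, plus strand), the factor that can convert other cells to muscle, was at 24.7, 21.4 and 16.6 CPM in no tumor. In KPC it was at 1.25, 2.64, 4.79 and 2.28 CPM, and in KPC IL6KO at 17.6, 24.9, 25.05 and 34.3 CPM. The highest KPC mouse was well under the lowest mouse of either other group. The fall from a mean of 20.9 ± 4.03 CPM in no tumor (SD, n = 3) to 2.74 ± 1.49 CPM in KPC (SD, n = 4) had a log2 fold change of -2.93 (SE 0.36, edgeR FDR 3.37e-05). Relative to KPC IL6KO the level was 9.30-fold lower (log2 -3.22, SE 0.35, edgeR FDR 1.37e-05).

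Myog (chromosome 1, 134289989 to 134292548, plus strand), the differentiation factor, moved the other way and unevenly. It was at 4.33, 5.31 and 4.41 CPM in no tumor, at 9.35, 8.58, 38.7 and 5.91 CPM in KPC and at 2.84, 3.65, 8.75 and 2.74 CPM in KPC IL6KO. All KPC mice were above all no tumor mice, KPC 3 stood far above the rest, and KPC IL6KO 3 overlapped the KPC range. The log2 fold change from no tumor was 1.74 (SE 0.64, edgeR FDR 0.0305), and from KPC IL6KO 1.79 (SE 0.57, edgeR FDR 0.0153). Without KPC 3 these values fell to 0.76 (edgeR FDR 0.12) and 0.82 (edgeR FDR 0.0731) and neither was called. The call against no tumor was also lost without no tumor 1 (log2 1.71, edgeR FDR 0.0814), no tumor 2 (1.84, edgeR FDR 0.0652) or no tumor 3 (1.70, edgeR FDR 0.0783), and remained without any of the other 7 libraries.

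The Myog promoter is printed because it is the classic meeting point of these factors: E-boxes (CANNTG), the sequence that myogenic factors bind, and a MEF2 core (TA, 4 letters that are each A or T, then TA). It runs from 250 bases before to 50 after the RefSeq start (GRCm38.p6, chr1:134289754-134290053, plus strand), and capitals mark the matches.
Myog: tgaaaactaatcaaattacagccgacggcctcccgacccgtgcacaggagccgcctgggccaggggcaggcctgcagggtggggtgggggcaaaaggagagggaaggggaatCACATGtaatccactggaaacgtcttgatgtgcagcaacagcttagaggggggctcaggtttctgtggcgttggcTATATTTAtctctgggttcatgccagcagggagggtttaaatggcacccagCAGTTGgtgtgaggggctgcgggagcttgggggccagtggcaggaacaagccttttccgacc
The matches are 2 E-boxes, at -138 to -133 and -12 to -7, and a MEF2 core at -63 to -56, counted from the start site. Both motifs are common in windows of this length, with E-boxes in 72.3% and MEF2 cores in 9.32% of the 32841 promoters of the RefSeq table. A match is a description of letters and says nothing of binding in these mice. The RefSeq table held a promoter for 7 of the 10 genes. The windows of Pax7, Myf5 and Mef2d held no E-box and no MEF2 core. That of Mef2a held a MEF2 core at -1 to 7 and no E-box. The Mef2c and Cdkn1a windows printed below were picked for their matches, so the printed windows do not stand for the members.

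Myf6 (chromosome 10, 107492853 to 107494737, minus strand), the factor of mature fibers and the neighbour of Myf5 on the chromosome, scattered widely among KPC mice. Its level was 59.3, 63.5 and 84.6 CPM in no tumor and 70.8, 62.4, 78.4 and 78.2 CPM in KPC IL6KO. In KPC it was 60.2, 145.8, 298.8 and 20.97 CPM, so that KPC 2 and KPC 3 were above and KPC 4 below all other mice. The coefficient of variation was 19.6% in no tumor, 10.5% in KPC IL6KO and 93.7% in KPC. The log2 fold change from no tumor was 0.93 (SE 0.62, edgeR FDR 0.203) with an interval from -0.43 to 2.29, and from KPC IL6KO it was 0.86 (SE 0.57, edgeR FDR 0.196). Without KPC 4 both were called up, at 1.28 (edgeR FDR 0.0196) and 1.21 (edgeR FDR 0.0167). KPC 3 was thus the highest mouse of its group for Myod1, Myog and Myf6, although Myod1 fell in it as in the others.

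Of the MEF2 factors, Mef2c moved against its relatives. Mef2c (chromosome 13, 83504034 to 83667080, plus strand), the member needed for sarcomere assembly, was at 363, 307 and 383 CPM in no tumor and at 379, 391.7, 325 and 411 CPM in KPC IL6KO. It was at 60.8, 88.7, 42.7 and 49.0 CPM in KPC, far below both groups with no overlap. The fall from a mean of 351 ± 39.5 CPM in no tumor (SD, n = 3) to 60.3 ± 20.4 CPM in KPC (SD, n = 4) was 5.82-fold (log2 -2.54, SE 0.22, edgeR FDR 3.16e-06), and the difference from KPC IL6KO was 6.25-fold (log2 -2.64, SE 0.21, edgeR FDR 1.84e-06).

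Mef2a (chromosome 7, 67231163 to 67372858, minus strand) was at 93.2, 87.1 and 103 CPM in no tumor, at 221, 132, 174 and 136 CPM in KPC, and at 105, 101, 111 and 117 CPM in KPC IL6KO. Each KPC mouse was above every other mouse. It rose 1.76-fold over no tumor (log2 0.81, SE 0.17, edgeR FDR 0.00111) and was 1.53-fold higher than in KPC IL6KO (log2 0.61, SE 0.15, edgeR FDR 0.00368). The latter value is close to the fold threshold and was no longer called without KPC 1 (log2 0.44) or without KPC IL6KO 2 (0.58), in a fit of only the 2 groups compared (0.58) or with scaling by total counts (0.47).

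Mef2d (chromosome 3, 88142372 to 88172086, plus strand) was at 155, 150 and 170 CPM in no tumor, at 323, 220, 223 and 219 CPM in KPC, and at 161, 164, 192 and 156 CPM in KPC IL6KO. Here too the KPC mice were above all others, and KPC 1 stood apart from the rest of its group. The rise over no tumor was 1.56-fold (log2 0.64, SE 0.15, edgeR FDR 0.00264). Without KPC 1 it was 0.48 on the log2 scale, and with scaling by total counts 0.43, both under the fold threshold although the FDR passed. Relative to KPC IL6KO the difference of 1.46-fold (log2 0.55, SE 0.14, edgeR FDR 0.00384) passed the FDR but not the fold threshold. It crossed that threshold when KPC 2 (0.60), KPC 3 (0.59), KPC 4 (0.60) or KPC IL6KO 3 (0.62) was left out.

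Mef2c has several starts, and RefSeq lists 3 promoter windows for it. The first (GRCm38.p6, chr13:83503784-83504083, plus strand) is shown because it holds a MEF2 core of its own and a match to the STAT element (TTC, any 3 letters, GAA), the kind of site read by the factors downstream of IL-6.
Mef2c: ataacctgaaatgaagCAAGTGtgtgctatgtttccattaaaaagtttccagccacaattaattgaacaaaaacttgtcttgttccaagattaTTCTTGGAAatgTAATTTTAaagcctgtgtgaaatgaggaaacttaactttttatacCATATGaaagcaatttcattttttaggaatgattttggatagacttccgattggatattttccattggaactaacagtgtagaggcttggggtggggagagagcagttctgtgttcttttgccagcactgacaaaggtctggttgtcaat
Capitals mark E-boxes at -234 to -229 and -100 to -95, the STAT element at -157 to -149 and the MEF2 core at -145 to -138. The matches do not overlap, both strands were searched, and a STAT element was present in 8.3% of all promoter windows. The other Mef2c windows held no MEF2 core or STAT element. Which start the reads came from cannot be read from counts per gene.

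Cdkn1a (chromosome 17, 29090976 to 29100727, plus strand) gave the largest change. The p21 protein that it encodes holds cells out of division and is induced by p53 and by myogenic differentiation. Its level was 17.4, 18.7 and 20.8 CPM in no tumor and 13.2, 10.7, 21.4 and 13.96 CPM in KPC IL6KO. In KPC it was 676, 151, 666 and 481 CPM, so that even the lowest mouse, KPC 2, was above every mouse of the other groups. The rise from a mean of 18.97 ± 1.75 CPM in no tumor (SD, n = 3) to 493 ± 245 CPM in KPC (SD, n = 4) had a log2 fold change of 4.70 (SE 0.49, edgeR FDR 1.04e-05). Over KPC IL6KO the level was 33.2-fold higher (log2 5.05, SE 0.44, edgeR FDR 3.12e-06).

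The upstream of the 2 Cdkn1a promoter windows in RefSeq (GRCm38.p6, chr17:29090729-29091028, plus strand) is shown because it holds a p53 response element, by which p53 is known to act on this gene.
Cdkn1a: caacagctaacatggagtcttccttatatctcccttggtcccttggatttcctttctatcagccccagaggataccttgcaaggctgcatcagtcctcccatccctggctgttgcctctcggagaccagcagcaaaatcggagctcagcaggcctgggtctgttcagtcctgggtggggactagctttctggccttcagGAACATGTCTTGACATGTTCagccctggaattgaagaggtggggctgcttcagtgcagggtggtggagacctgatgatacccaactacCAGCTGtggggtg
The long run of capitals, at -51 to -32, matches the p53 response element with 1 mismatch outside its cores, and the short run, at 38 to 43, is an E-box. No member promoter matched the element without a mismatch, and the mismatch was allowed after that was seen. With it the element was found in 18 promoter windows, 0.0548% of all. Neither Cdkn1a window held a MEF2 core or a STAT element.

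Myc (chromosome 15, 61985391 to 61990374, plus strand) was at 8.61, 5.31 and 6.56 CPM in no tumor and at 8.69, 2.86, 6.92 and 5.71 CPM in KPC IL6KO. In KPC it was at 37.5, 15.8, 33.5 and 13.3 CPM, above all other mice. It rose 3.66-fold over no tumor (log2 1.87, SE 0.43, edgeR FDR 0.00239) and was 4.15-fold higher than in KPC IL6KO (log2 2.05, SE 0.39, edgeR FDR 0.000632). KPC 1 and KPC 3 were the higher pair of KPC mice both for Myc and for Cdkn1a.

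Levels were compared between genes as mean CPM per kb of exon, with the exons of all annotated transcripts of a gene joined. This length was 15715 bases for Mef2c, with 31 transcripts, and 5985 for Mef2d, with 7. It understates a gene whose reads come from shorter transcripts, so the order depends on it. The sources name different library kits for quadriceps, so how evenly reads covered these exons is not known. Whether the authors counted over the same exons was not checked. By CPM alone, Mef2c was above Mef2d in no tumor muscle, at 351 and 158. In no tumor muscle the order from high to low was Myf6 at 54.8, Mef2d at 26.4, Mef2c at 22.3, Myod1 at 11.2, Mef2a at 6.42, Cdkn1a at 5.34, Myog at 3.13, Myc at 2.51, Myf5 at 0.469 and Pax7 at 0.440 CPM per kb. The ranges of neighbours overlapped for Myog with Myc and for Myf5 with Pax7 and for no other neighbours. KPC IL6KO muscle kept the same order, from 57.4 CPM per kb for Myf6 to 0.500 for Pax7. There the ranges overlapped for the same neighbours, and also for Mef2d with Mef2c and for Cdkn1a with Myog. In KPC muscle Cdkn1a was first at 139 CPM per kb and Myf6 followed at 104, with ranges that overlapped. Mef2c, which ranked 3 in no tumor, ranked 7 at 3.84 CPM per kb, and Myod1 at 1.47 ranked 8.

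**Figure D3:**
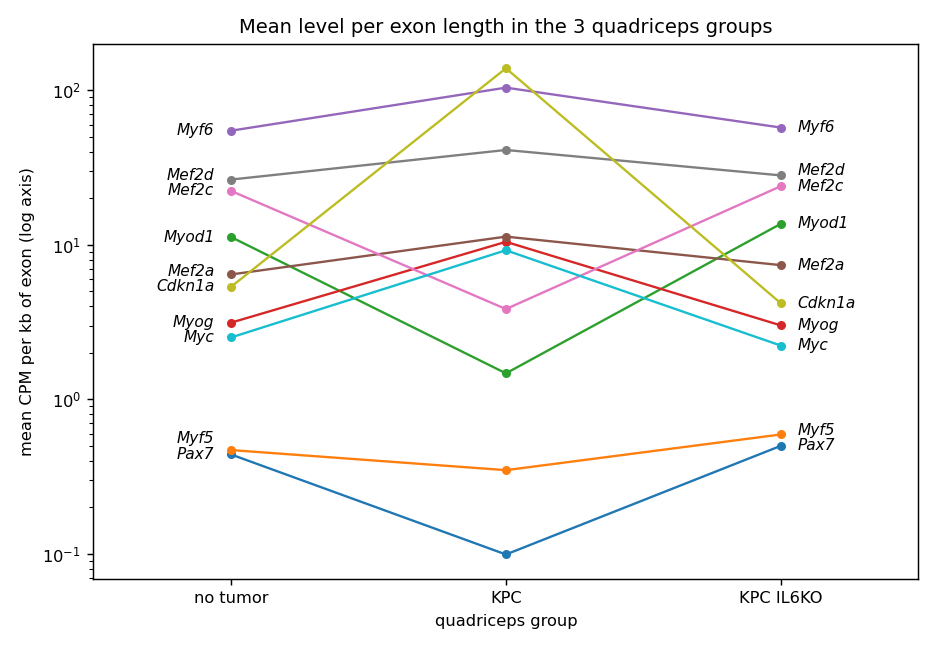
Mean level of each gene per kb of exon (CPM per kb, log axis) in no tumor, KPC and KPC IL6KO quadriceps. Lines join the group means of 1 gene. Cdkn1a passes from 5.34 to 139 CPM per kb in KPC while Mef2c, Myod1 and Pax7 fall, and the no tumor and KPC IL6KO columns hold the genes in the same order.

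Reads of 3 members could in part belong to other genes. Mef2a overlaps Lysmd4, and Mef2d and Cdkn1a overlap the uncharacterised genes 1700113A16Rik and AC167363.2, each on the opposite strand. Mef2a also overlaps Gm44667 and Gm44668 on its own strand, which strand-specific reads cannot separate from it. The libraries were made strand-specific, but whether the counting used strand is not stated in the sources used here.

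Genes around the members were followed in 11 lists with 209 measured genes. The KPC counts and medians below are to be read beside 26.7% up, 29% down and a median log2 fold change of -0.03 over all genes. The lists were chosen with earlier results of these data known, so setting them beside all genes is a description and not a test. In KPC IL6KO muscle none of the 209 was called by the quasi-likelihood test, and 15 had an unadjusted p under 0.05. DESeq2 and the likelihood ratio test each called 1 up, H19. At most 4 genes per list were named by a rule of size, and H19, Calcr, Pax3, Myh3, Cdkn1b, Cdkn1c, Cdkn2b, Cdkn2c, Trp53 and Ccng1 were named after their values were seen. Other genes of satellite cells gave a mixed picture, with 3 up, 9 down and 14 not called of 26 in KPC and a median of -0.12. Sdc4, a surface proteoglycan of these cells, rose from 26.8 to 88.5 CPM (log2 1.72, SE 0.19), and Rbpj, the factor through which Notch acts, rose by 1.09 (SE 0.19) on the log2 scale. Vcam1, an adhesion molecule of satellite cells, fell from 4.52 to 1.45 CPM (log2 -1.64, SE 0.28), and Chodl had a log2 fold change of -1.20 (SE 0.19). In fat, which had no Pax7 row, Sdc4, Rbpj and Vcam1 averaged 42.4, 50.6 and 19.55 CPM in no tumor. They averaged 116, 72.4 and 99.5 CPM in KPC fat, with none called. The quadriceps values of these 3 genes therefore cannot be assigned to satellite cells. Calcr, the receptor that marks quiescent satellite cells, fell from 0.511 to 0.0521 CPM (log2 -3.21, SE 0.52, edgeR FDR 0.000208), with at most 8 counts in a KPC library. Pax3, the close relative of Pax7, was at 1.14 and 1.06 CPM (log2 -0.07, SE 0.44).

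Of the homeobox and EYA factors that act upstream of the myogenic factors, 3 rose and 7 fell of 14, with a median of -0.79, and 1 instead of 3 rose with scaling by total counts. Lbx1, a factor of limb muscle precursors, fell from 35.97 to 11.2 CPM (log2 -1.68, SE 0.19), and Six2 had a log2 fold change of -1.65 (SE 0.51). Pitx3 rose by 1.19 (SE 0.23) on the log2 scale.

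Among partners of the myogenic factors 5 rose and 2 fell of 12, with a median of 0.41, and 3 instead of 5 rose with scaling by total counts. Mamstr, a coactivator of MEF2, fell from 38.7 to 5.90 CPM (log2 -2.71, SE 0.22), and Smarcd3, a chromatin remodelling subunit that works with Myod1, had a log2 fold change of -1.25 (SE 0.12). The coactivators Crebbp and Med1 rose by 1.36 (SE 0.19) and 1.12 (SE 0.19). Of genes known to oppose the myogenic factors, 2 rose and 7 fell of 16, with a median of -0.43. Bhlhe41, Bhlhe40 and Mdfic fell, with log2 fold changes of -2.37 (SE 0.26), -1.11 (SE 0.13) and -1.08 (SE 0.16), and the deacetylase Sirt1 rose by 1.15 (SE 0.19).

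Regulators of the MEF2 factors gave 3 up, 4 down and 12 not called of 19, with a median of -0.02. Hdac9, a class II deacetylase that represses MEF2, fell from 7.27 to 0.590 CPM (log2 -3.62, SE 0.32), and the kinase Camk2a fell from 658 to 139 CPM (log2 -2.24, SE 0.33). Sik1, a kinase that acts on class II deacetylases, rose from 34.2 to 325 CPM (log2 3.24, SE 0.47), and the cofactor Vgll2 rose by 1.83 (SE 0.41). Muscle genes with known MRF or MEF2 sites were split, with 4 up, 11 down and 11 not called of 26 and a median of -0.42. Pgam2 and Eno3, muscle enzymes of glycolysis, fell from 2062 to 367 CPM (log2 -2.49, SE 0.18) and from 6662 to 1692 CPM (log2 -1.98, SE 0.27). The orphan receptor Nr4a1 fell with a log2 fold change of -2.29 (SE 0.34), and the small heat shock protein gene Hspb7 rose by 2.97 (SE 0.28).

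Genes of myoblast fusion and regenerating fibers gave 2 up, 5 down and 15 not called of 22, with a median of -0.25. Actc1, the cardiac actin of developing fibers, fell from 860 to 54.8 CPM (log2 -3.97, SE 0.36), and Ankrd1, a stress-responsive titin-binding protein, rose by 1.87 (SE 0.52). Myof and Igf2 fell, with log2 fold changes of -1.11 (SE 0.21) and -0.92 (SE 0.16). Embryonic myosin, Myh3, was at 1.298 and 1.13 CPM and not called (log2 -0.24, SE 0.50). The count up in this list was 1 instead of 2 with the replicate block, with total count scaling, and without no tumor 2, KPC 1 or KPC 4.

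The lists closest to Cdkn1a were those of the cell cycle and of p53. Of 15 other cell cycle genes 2 rose and 8 fell, with a median of -0.79. Ccnd1, cyclin D1, fell from 10.6 to 0.680 CPM (log2 -3.95, SE 0.32) and Ccnd2 had a log2 fold change of -1.75 (SE 0.35), while the retinoblastoma family genes Rbl2 and Rb1 rose by 2.057 (SE 0.19) and 1.32 (SE 0.23). Of the other CDK inhibitors in this list, Cdkn1b was at 26.5 and 26.7 CPM (log2 0.01, SE 0.10), and Cdkn1c, Cdkn2b and Cdkn2c fell. Among p53, its regulators and its targets 12 rose and 1 fell of 20, with a median of 0.96. Sesn1 rose from 23.9 to 451 CPM (log2 4.24, SE 0.29), Eda2r from 7.76 to 118 CPM (log2 3.95, SE 0.58), Gadd45a from 21.6 to 223 CPM (log2 3.37, SE 0.49) and Trp53inp1 from 11.3 to 95.9 CPM (log2 3.09, SE 0.42). Trp53 itself was at 14.8 and 20.8 CPM and not called (log2 0.49, SE 0.41), and Ccng1, a p53 target as well, fell with a log2 fold change of -1.403 (SE 0.12). With scaling by total counts the number that fell in this list was 3. The part of p53 in these values and in the rise of Cdkn1a was not tested.

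In the MYC network, its dimer partners and their rivals, 4 rose and 3 fell of 12, with a median of 0.40. Max, the obligate partner of Myc, rose by 0.97 (SE 0.17), Mnt, a repressor that competes for Max, rose by 1.31 (SE 0.19), and Mlxipl and Fbxw7, the latter a ubiquitin ligase that targets the Myc protein, fell with log2 fold changes of -1.82 (SE 0.17) and -1.19 (SE 0.11). Of 27 ribosome synthesis and growth genes that MYC is known to bind, 18 rose and 3 fell, with a median of 0.87. Ddx21 and Gnl3, nucleolar proteins, rose from 47.5 to 305 CPM (log2 2.68, SE 0.23) and from 23.2 to 146 CPM (log2 2.66, SE 0.23), and the translation factor Eif4a1 rose by 2.19 (SE 0.27). Tfrc, the transferrin receptor, went the other way, from 89.4 to 5.07 CPM (log2 -4.14, SE 0.42).

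Relative to KPC IL6KO, where 26.4% of all genes were called higher in KPC and 27.3% lower, 14 of the p53 genes were higher and 1 lower, and 15 of the MYC targets were higher and 3 lower. Of the satellite cell genes 4 were higher and 9 lower, of the upstream factors 2 and 9, of the cell cycle genes 2 and 9, and of the MRF and MEF2 targets 4 and 12. The other lists gave 3 higher and 2 lower for partners, 3 and 6 for inhibitors, 3 and 5 for MEF2 regulators, 1 and 5 for fusion and regeneration, and 5 and 4 for the MYC network.

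**Figure D4:**
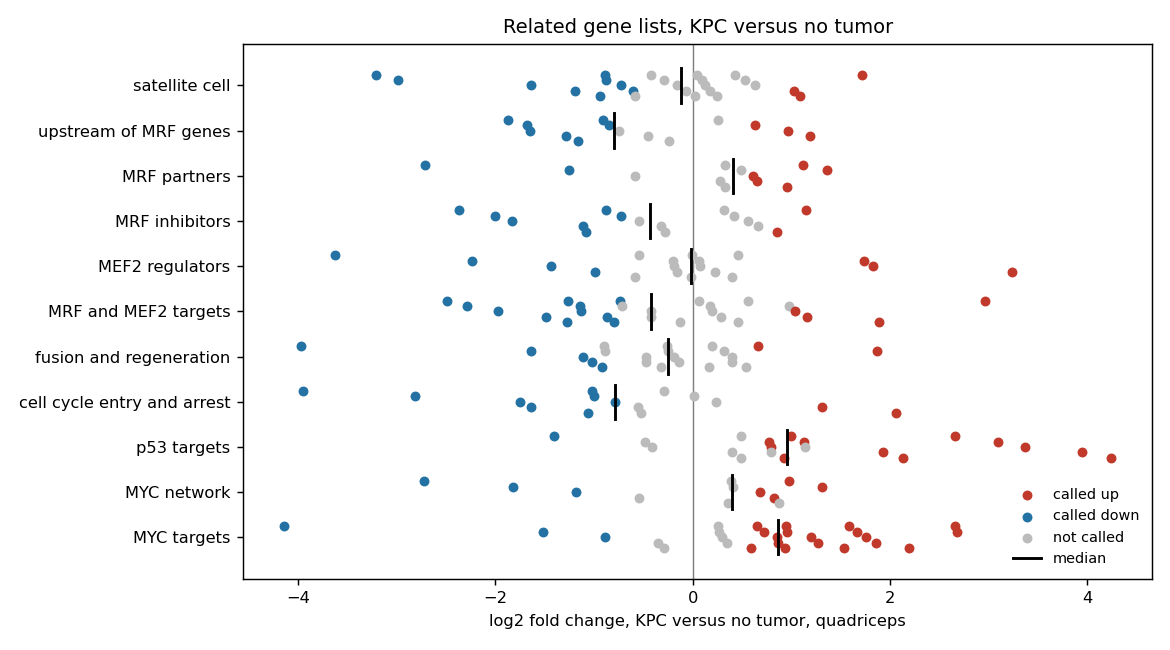
Log2 fold change in KPC relative to no tumor quadriceps for the measured genes of the 11 lists. Points are genes, red called up, blue called down and grey not called, and black bars are list medians. The p53 and MYC target lists have their medians at 0.96 and 0.87, and the upstream and cell cycle lists at -0.79.

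Markers of other cells in quadriceps moved in the KPC group. In KPC IL6KO no marker was called, but some shifted the same way. All 5 fibro-adipogenic markers fell, and their sum was 552 to 606 CPM in no tumor, 155 to 253 in KPC and 329 to 457 in KPC IL6KO, with none of the 5 at the floor. The 5 smooth muscle and pericyte markers also all fell, from sums of 125 to 185 to sums of 48.5 to 92.8 CPM, and 3 of 4 tendon and 3 of 5 Schwann cell markers fell. The Schwann cell markers summed to 57.0 to 114 CPM in no tumor, 18.9 to 63.7 in KPC and 37.5 to 50.6 in KPC IL6KO, where 0 of 5 were called and 3 had an unadjusted p under 0.05. The 4 neutrophil markers rose, from sums of 0.359 to 0.779 CPM to sums of 4.50 to 21.8 CPM, with KPC IL6KO at 2.14 to 4.13. There 3 of the 4 had an unadjusted edgeR p under 0.05. The 6 adipocyte markers summed to 304 to 1383 CPM in no tumor, 121 to 687 in KPC and 139 to 320 in KPC IL6KO. These ranges overlapped, and the highest sum was that of no tumor 2. The median log2 fold change of the 6 adipocyte markers was -1.42 in KPC and -2.26 in KPC IL6KO. An unadjusted edgeR p under 0.05 was found for 2 and 3 of them. Of the macrophage markers 1 of 5 rose and 2 fell, of the endothelial 2 of 5 fell, of the adipocyte 1 of 6 fell, of the muscle fiber markers 1 of 6 rose and 1 fell, and of the 2 epithelial markers with a row 1 rose. What part these cells have in the values of Pax7, Cdkn1a, Myc and the other genes was not tested.

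In fat, Mef2a, Mef2c, Mef2d, Cdkn1a and Myc had rows, and none of them was called in any of the 3 comparisons. The quasi-likelihood test over the 3 groups called 0% of all genes in each, while 2061 genes had an unadjusted p under 0.05 in KPC, 1584 in KPC IL6KO and 1062 between the tumor groups. The likelihood ratio test called 268 genes up in KPC, with 145 down, and 209 up in KPC IL6KO, with 0 down. DESeq2 called 364 up in KPC, with 221 down, and 281 up in KPC IL6KO, with 4 down. In KPC a quasi-likelihood fit of only the 2 groups compared called 166 up and 8 down, and the newer quasi-likelihood fit 15 up and 1 down. Between the tumor groups the newer fit called 1 higher in KPC and 0 lower, the likelihood ratio test 7 higher in KPC and 59 lower, and DESeq2 19 higher and 106 lower. Fat libraries varied more, with a coefficient of variation of 63.5% between mice against 22.7% in muscle, so smaller changes were not detectable. Unadjusted p values under 0.05 were found for 2 of the 5 in KPC, Cdkn1a and Myc, for 3 in KPC IL6KO, Mef2d, Cdkn1a and Myc, and for 0 between the tumor groups. None of these fits called any of the 5. Myc was at 5.65, 12.7, 2.93 and 9.37 CPM in no tumor fat, at 46.8, 26.6, 21.3 and 37.95 CPM in KPC and at 102.6, 6.41, 16.1 and 34.4 CPM in KPC IL6KO. KPC did not overlap no tumor, whereas 1 KPC IL6KO mouse lay within the no tumor range. The log2 fold changes of 2.11 (SE 0.74, edgeR FDR 0.311) and 2.38 (SE 0.75, edgeR FDR 0.4) did not pass the test over all genes. The summed neutrophil markers in the same fat were 2.79 to 6.37 CPM in no tumor, 20.5 to 49.7 in KPC and 4.29 to 58.3 in KPC IL6KO. The 5 macrophage markers summed to 103 to 383 CPM, 408 to 868 CPM and 188 to 1016 CPM in the same order. The fat also held the 5 epididymis markers, at 727 to 72213 CPM, and the 6 adipocyte markers, at 993 to 18078 CPM. None of these markers was called between groups, and their part in the values of Myc and the other genes was not tested.

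Cdkn1a was at 15.6, 24.3, 19.9 and 24.9 CPM in no tumor fat, at 72.9, 32.3, 24.0 and 25.7 CPM in KPC and at 29.2, 28.8, 48.0 and 61.5 CPM in KPC IL6KO. KPC 5 stood apart, and the log2 fold changes were 0.87 (SE 0.38, edgeR FDR 0.397) in KPC and 0.98 (SE 0.38, edgeR FDR 0.481) in KPC IL6KO. Mef2c ranged from 7.90 to 24.4 CPM in no tumor fat and from 13.3 to 22.8 CPM in KPC (log2 -0.04, SE 0.42). In KPC IL6KO fat it was at 17.4, 12.7, 17.4 and 42.4 CPM, highest in KPC IL6KO 8. The 6 muscle fiber markers summed to 2489 CPM in that library, to 212 to 395 CPM in the other KPC IL6KO fat, to 43.4 to 637 CPM in no tumor and to 30.3 to 40.7 CPM in KPC. The 5 smooth muscle and pericyte markers summed to 4101 CPM in it, where no tumor fat ranged from 450.2 to 4411 CPM and KPC fat from 172 to 357 CPM, and the part of these cells in the Mef2c values was not tested. Mef2a ranged from 119 to 205 CPM and from 131 to 188 CPM (log2 -0.02, SE 0.24), and Mef2d from 25.8 to 35.8 CPM and from 34.0 to 38.3 CPM (log2 0.26, SE 0.22).

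Whether the KPC change differed between muscle and fat was tested in 1 fit of all 23 libraries over the 12599 genes of both tables. Tissue and sequencing run cannot be told apart, but each change is within its own tissue. The change was called different for 2 of the 5 genes, Mef2c and Cdkn1a, where 36.9% of all genes were. The log2 fold change in muscle minus that in fat was -2.60 for Mef2c (SE 0.50, edgeR FDR 0.000533) and 3.73 for Cdkn1a (SE 0.61, edgeR FDR 0.000126). The difference for Mef2a was 0.73 (SE 0.29, edgeR FDR 0.0528), just short of the threshold. For Mef2d it was 0.26 (SE 0.27, edgeR FDR 0.467) and for Myc -0.34 (SE 0.89, edgeR FDR 0.787), and the error for Myc leaves room for a large difference either way.

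**Figure D5:**
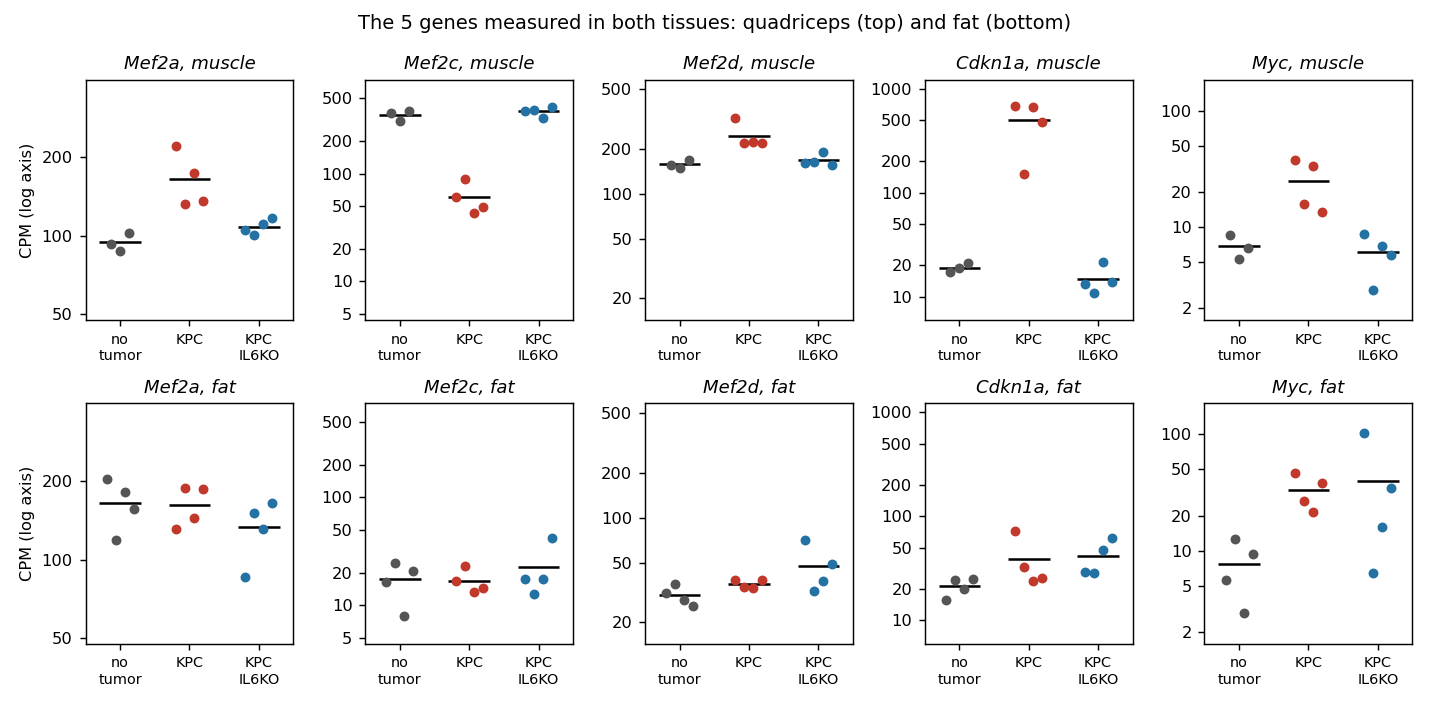
Levels of the 5 genes with rows in both tables, in CPM on log axes shared within a column, with quadriceps above and epididymal fat below. Points are mice and lines are group means. Mef2c and Cdkn1a of KPC mice stand apart in muscle and not in fat, while Myc of KPC mice is above no tumor in both tissues.

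Genes with the profile most like each member over the 11 quadriceps libraries were found by Pearson's r of log2 CPM among 10512 other genes. The values share group, depth and scaling, and are a description. For Pax7 they were Stac3, Znrf1 and Tnnc2, from r = 0.989, and for Myf5 Plxnb2, Raly and Trim8, from r = 0.928. Myod1 was closest to A130010J15Rik (r = 0.990), then Ppap2a and Pde6d. Myog was closest to Fam120aos (r = 0.967), then 2410004B18Rik and Vamp2, and Myf6 to Glmp (r = 0.946), then Pcgf3 and Hsdl1. Mef2c followed Ncs1 (r = 0.997), Calm3 and 9330159F19Rik, Mef2a followed Fxr1 (r = 0.992), Dmd and Kpna1, and Mef2d followed Brd1 (r = 0.973), Tbx1 and Kmt2c. Cdkn1a was closest to Hnrnpf (r = 0.997), Mterf3 and Mt1, and Myc to Rpl37rt (r = 0.965), Gltscr1l and Erh.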

How the data were processed

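RNA from quadriceps and epididymal fat was sequenced in separate experiments. Per the labels and the study's methods, the authors checked reads with FastQC, mapped them to mm10 with STAR and assigned them to genes with featureCounts (Subread 1.5.1), and the deposited values are raw counts per gene. The sources name different library kits for quadriceps. The authors removed 1 no tumor quadriceps sample as an outlier, which is not used here.

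Counts were analysed with edgeR 4.0.16 in R 4.3.3, with TMM normalization and a quasi-likelihood test over the 3 groups of a tissue. filterByExpr removed no gene. P values were adjusted by Benjamini-Hochberg over all genes of a table, and a gene was called at FDR at most 0.05 and fold change at least 1.5. Each library came from a different mouse, so the tests measure spread between mice. The tests were also run on simulated counts, with an outcome that is not given here and not used as support. No 2 libraries of the same group and tissue agreed within sampling noise.

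The members and the lists were chosen with earlier results of these data known. From each list at most 4 genes were named, those with the largest called change in KPC relative to no tumor, provided that the groups did not overlap and that log2 CPM averaged 1 or more, together with any called in KPC IL6KO relative to no tumor. Some named items are not reported here. For likeness the 3 genes of highest Pearson's r were named. Promoters came from RefSeq, and gene positions from a GRCm38 annotation. Alternatives were the likelihood ratio test, DESeq2 1.42.0, RLE scaling, no filter, at least 10 counts in every library, a fit of only the 2 groups compared, the replicate block and leaving out each library in turn. Scaling by total counts, a newer quasi-likelihood fit, and leaving out KPC 3 and no tumor 3 of quadriceps together were added after seeing the data.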

Additional observations from a re-analysis of the deposited data

Results flagged for a closer look

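In 5 of 35 groups of 4 libraries, 1 library lay further from the rest than Dixon's 95% limit for the gap over the range. Chance passes that limit in about 1 in 20 groups of normal values. These were untransformed CPM of genes that share libraries, so 5 of 35 cannot be set against that rate. All 5 were the highest value of their group. In quadriceps, Myog was at 38.7 CPM in KPC 3, with the next KPC mouse at 9.35, and at 8.75 CPM in KPC IL6KO 3, with the next at 3.65. Mef2d was at 323 CPM in KPC 1, with the next KPC mouse at 223. In fat, Mef2c was at 42.4 CPM in KPC IL6KO 8, with the next at 17.4, in the fat library with the highest sum of muscle fiber markers, 2489 CPM. Cdkn1a was at 72.9 CPM in KPC 5, with the next at 32.3.

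The KPC change differed between quadriceps and fat for Mef2c, by -2.60 on the log2 scale, and for Cdkn1a, by 3.73, in the fit with an interaction of group and tissue.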

How the results depend on the processing

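The number of the 10 genes called in KPC relative to no tumor was 8 under each alternative that kept all libraries and 7 to 9 when 1 library was left out. Relative to KPC IL6KO it was 7 or 8, and 7 to 10 with 1 library left out. None was called in KPC IL6KO relative to no tumor, or in fat, under any alternative. For the difference between tissues 2 or 3 were called. Of 1080 refitted log2 values of members, 1024 kept their direction and their side of the threshold, 13 lost a call, 16 gained one and 27 changed sign, and those 27 were of values that were never called. Part of these refits could change little or nothing. The fit with no filter equalled the main fit, as no gene was removed, and some libraries left out were of a group not compared. Mef2a gained a call for the difference between tissues with DESeq2 (0.83, FDR 0.0228), with RLE scaling (0.83, FDR 0.0353) and without 1 of 6 libraries. Without KPC 3 and no tumor 3 together, Myog was at 0.72 (edgeR FDR 0.215) relative to no tumor.

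Deviations of same-numbered quadriceps libraries correlated at -0.15 to 0.27 and those of differently numbered ones at -0.24 to 0.27. In fat the ranges were -0.54 to 0.65 and -0.65 to 0.62. Ranges that overlap so widely, from so few libraries per group, cannot decide whether replicate numbers mark a shared batch. With the replicate block 8, 0 and 8 of the 10 genes were called in the 3 quadriceps comparisons, as without it, and the cause of a change under the block was not tested. In fat, Mef2c was then at 0.048 in KPC relative to no tumor, and Myc at 0.061 relative to KPC IL6KO. With scaling by total counts, which moved the share of all calls that were up from 48% to 36.8% in KPC relative to no tumor, fat Mef2c was at 0.021 and fat Mef2a at 0.063. With only the 2 groups compared, fat Mef2a was at 0.0089.

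With 1 library left out, values that changed sign ran as follows on the log2 scale. In KPC IL6KO relative to no tumor quadriceps, Myf6 ran from -0.035 to 0.24, Myc from -0.40 to 0.055 and Myog from -0.61 to 0.12. In fat of KPC relative to no tumor, Mef2c ran from -0.28 to 0.17 and Mef2a from -0.15 to 0.093. In fat of KPC relative to KPC IL6KO, Cdkn1a ran from -0.61 to 0.13, Myc from -0.62 to 0.81 and Mef2c from -0.61 to 0.0895. In fat of KPC IL6KO relative to no tumor, Mef2c ran from -0.13 to 0.59. The cause was not tested. Depth limited Pax7 and Myf5, which had 20 to 190 counts per quadriceps library.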
